A study of Mus musculus with 2 samples.

Results

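The clustered protocadherins are 3 neighbouring gene families, Pcdha (alpha), Pcdhb (beta) and Pcdhg (gamma), that lie in tandem on mouse chromosome 18. All genes whose symbol in GENCODE matched one of these families with a number were taken, and each was found by its Ensembl identifier in both gene tables. This gave 58 of the 43346 Ensembl genes measured, 14 in the alpha cluster, 22 in the beta cluster and 22 in the gamma cluster, all on the plus strand. On mm10 (GRCm38) the alpha genes span chromosome 18 from 36930184 to 37187661, the beta genes from 37264938 to 37524479 and the gamma genes from 37661793 to 37841873. The symbol Pcdha11 stood on 2 Ensembl genes in the annotation used here. The one with identifier ENSMUSG00000007440 is called Pcdha10 below, as RefSeq places it, and ENSMUSG00000102206 is called Pcdha11. Pcdhgb8 is annotated as a polymorphic pseudogene, and the other 57 genes as protein-coding.

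Clustered protocadherins are cell-surface proteins of the cadherin superfamily, best known in neurons. Each alpha and gamma messenger RNA joins 1 large variable exon to 3 constant exons shared by the whole cluster. The variable exon encodes the extracellular domains, the membrane segment and a short stretch of the inside. Each variable exon has its own promoter. Most isoforms are switched on by chance in a few copies per neuron through promoter choice that involves CTCF, cohesin and DNA methylation, whereas the C-type isoforms at the end of the alpha and gamma clusters are expressed more widely across neurons of a type. Protein pairs of the same isoform bind across membranes, and the combination on a cell lets it tell its own branches from those of other cells. The beta genes have no constant exons.

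The tissue was midbrain of healthy B6NCrl mouse embryos at embryonic day 16.5, with both sexes pooled. Total RNA longer than 200 nucleotides was sequenced from 10 ng with spike-in controls in 2 libraries, replicates 1 and 2 of 1 group, and the labels give no second condition, genotype or treatment. Replicate 2 was made from 37 embryos, the number for replicate 1 is not given, and both carry the same donor identifier. The labels thus do not establish that the libraries came from separate embryos. Each library is called a pool below. The SD (n = 2) holds any difference between the 2 libraries, including that of preparation and depth, and no test is possible. In bulk tissue, fewer cells that express a gene and less RNA per cell cannot be told apart.

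The libraries held 31830355 and 36576263 expected counts (estimated reads per feature, where an ambiguous read is split between its possible sources) in replicates 1 and 2. All 8 neuron markers fixed for the check were at 1 TPM (transcripts of a gene per fixed total, which takes length into account) or more in both libraries, as were 7 of 8 midbrain markers, En2 being below at 0.61 and 0.46 TPM. Markers of other cells were present too. The 8 astrocyte and radial glia markers summed to 1770 TPM in replicate 1 and 2458 TPM in replicate 2. Fabp7 alone held 1253 and 1565 TPM of this. The 8 progenitor and cell cycle markers summed to 463 and 359 TPM, of which Vim held 311 and 259 TPM. At 1 TPM or more in both libraries were 7 of the first list, without Gfap at 0.23 and 1.02 TPM, and all 8 of the second. So were all 8 vascular and meningeal, 7 oligodendrocyte lineage and 6 microglia markers, and 3 of 4 choroid plexus markers, without Kl at 0.78 and 0.46 TPM. Of all protein-coding genes, 62.1% were at that level.

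Nearly every clustered protocadherin was present at a low level. A level of 1 TPM or more in each library, called detected here, was reached by 57 of the 58 genes, against 62.1% of the 21474 protein-coding genes. Only 11 of the 58 reached 10 TPM in both libraries, against 41.2% of protein-coding genes. The median member was at 4.52 TPM in replicate 1 and 4.45 TPM in replicate 2, and the median protein-coding gene at 5.25 and 5.21 TPM. Together the 58 genes held 502.6 and 544.1 TPM, which was 0.0522% and 0.0576% of the TPM of all Ensembl genes. Detection was thus above the background, while the median was below that of protein-coding genes in both libraries.

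The gamma cluster held most of this RNA. Its genes summed to 314.3 TPM in replicate 1 and 347.3 TPM in replicate 2, a share of 63.2% ± 0.930 (SD, n = 2) of member TPM. The alpha genes summed to 96.6 and 102.6 TPM, 19.0% ± 0.256, and the beta genes to 91.7 and 94.1 TPM, 17.8% ± 0.674. The gamma range lay apart from the others in both libraries, while alpha exceeded beta by less than 10 TPM in each. The gamma excess rested largely on 1 gene. Pcdhgc4 alone held 43.2% ± 5.56 of gamma TPM, and without it the gamma genes summed to 190.8 and 183.6 TPM, 49.3% of the remaining member TPM.

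**Figure D1:**
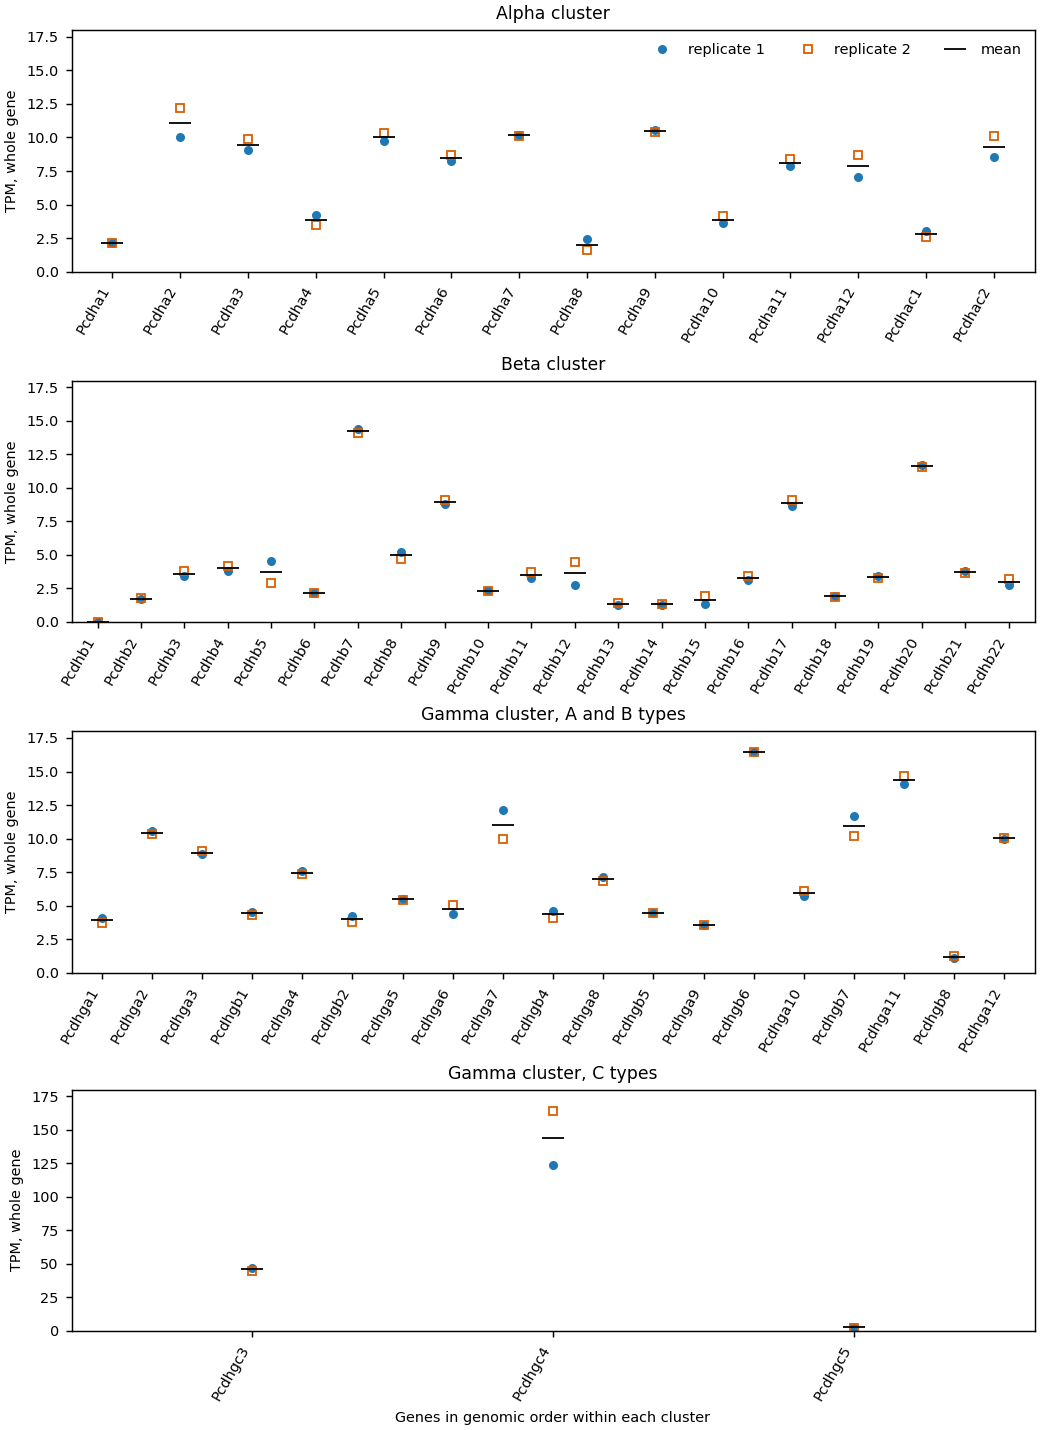
Whole-gene TPM (vertical axes, linear, from 0) of the 58 clustered protocadherin genes in genomic order within each cluster; filled circles are replicate 1, open squares replicate 2 and black bars the mean. Pcdhgc4 and Pcdhgc3 stand above all others on the lowest panel, whose axis reaches 10 times higher, and Pcdhb1 lies at 0.

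Among the 12 alpha genes that are not C-type, levels were fairly even. Their means ran from 1.99 to 11.1 TPM with a class median of 8.05 TPM in replicate 1 and 8.69 TPM in replicate 2, the highest median of any class other than the gamma C-types. Pcdha2 was highest at 10.0 and 12.2 TPM. Pcdha9 followed at 10.6 and 10.4 TPM, and Pcdha7 at 10.2 and 10.1 TPM. The range of Pcdha2 held those of both others, and only these 3 were at 10 TPM or more in both libraries. Pcdha8 was lowest at 2.41 and 1.58 TPM. Pcdha2 was above Pcdha8 by 2.50 ± 0.63 on the log2 scale (SD, n = 2), a fold of 5.66. The 3 highest genes of the whole alpha cluster, taken in each library, held 31.9% ± 0.201 of its TPM, so no single variable exon dominated.

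The 2 alpha C-types differed from each other. Pcdhac1 (chromosome 18, 37090013 to 37187657) was at 3.0 TPM in replicate 1 and 2.59 TPM in replicate 2. Pcdhac2 (37143503 to 37187657), the last variable exon before the constant exons, was at 8.55 and 10.1 TPM. The libraries did not overlap, and Pcdhac2 was higher by 1.74 ± 0.32 on the log2 scale, a fold of 3.33. Pcdhac2 is known as the alpha isoform used by serotonin neurons in tiling their axons. Its 9.32 TPM lay within the range of the other alpha genes, not above it. All 6 serotonin neuron markers were detected, against 62.1% of protein-coding genes. The highest of them were Slc18a2 at 24.9 and 23.5 TPM and Ddc at 15.6 and 18.1 TPM. Tph2, the enzyme of serotonin synthesis, was at 8.60 and 7.20 TPM, Slc6a4 at 6.60 and 9.07 TPM and Fev, the lowest, at 2.40 and 1.33 TPM. Which cells gave the RNA of each marker was not tested. Of the 6 dopamine neuron markers 5 were detected, among them Th at 15.1 and 24.0 TPM. Lmx1b was below, at 0.83 and 0.80 TPM. Whether the cells of either list bear on the level of Pcdhac2 was not tested.

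The beta cluster had the lowest median of the 3 clusters. It was 3.22 TPM in replicate 1 and 3.34 TPM in replicate 2. Pcdhb7 was highest at 14.4 and 14.1 TPM, Pcdhb20 followed at 11.7 and 11.6 TPM, and both were the only beta genes at 10 TPM or more. Pcdhb9 was at 8.77 and 9.09 TPM. The 3 highest genes of each library held 37.5% ± 0.732 of beta TPM, the third being Pcdhb9 in replicate 1 and Pcdhb17, at 9.11 TPM, in replicate 2. Of the 21 detected beta genes the lowest was Pcdhb14, named because its value was seen, at 1.24 and 1.37 TPM, and Pcdhb7 was above it by 3.45 ± 0.12 on the log2 scale, a fold of 10.9.

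Pcdhb1, the first beta gene (chromosome 18, 37264938 to 37267525), was the only clustered protocadherin that was not detected. It had an expected count of 0 in replicate 1 and 1 in replicate 2. A count of 0 allows up to 3 counts, which for this gene is 0.0651 TPM in replicate 1, for counting error alone. In replicate 2 the single count was 0.02 TPM, and the deposited upper credibility bound was 0.0864 TPM. None of its 31-base words (every stretch of 31 bases in its annotated transcripts) occurred in another gene of the tables, so its reads could not have been divided with a copy there. The next lowest member, Pcdhgb8, was at 1.10 and 1.25 TPM.

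The gamma A and gamma B genes alternate along the cluster, and their variable exons encode 2 sequence types. The 12 gamma A genes had a median of 7.36 TPM in replicate 1 and 7.11 TPM in replicate 2, and the 7 gamma B genes 4.51 and 4.31 TPM. Pcdhga11 led the A type at 14.1 and 14.7 TPM, followed by Pcdhga7 at 12.1 and 9.94 TPM and Pcdhga2 at 10.5 and 10.3 TPM. Pcdhga9 was lowest of that type at 3.52 and 3.55 TPM. The A type thus spanned a 4.07-fold range of means.

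The B type was led by fewer genes. Pcdhgb6, at 16.4 and 16.5 TPM, was the highest clustered protocadherin that is not a C-type, and Pcdhgb7 was at 11.7 and 10.2 TPM. Pcdhgb5 was next at 4.47 and 4.45 TPM, and the polymorphic pseudogene Pcdhgb8 was lowest. Taken in each library, the 3 highest B genes held 69.7% ± 0.146 of the TPM of their type. The 3 highest A genes, which are drawn from more genes, held 38.7% ± 0.893. Pcdhgb6 was above Pcdhgb8 by 3.81 ± 0.13 on the log2 scale, a fold of 14.

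The 3 gamma C-types held both the highest and one of the lowest levels of the cluster. Pcdhgc4 (ENSMUSG00000023036, chromosome 18, 37815079 to 37841873), the isoform known to be needed for survival of many interneurons, was at 123.4 TPM in replicate 1 and 163.7 TPM in replicate 2. Pcdhgc3 (ENSMUSG00000102918, 37806364 to 37841873), an isoform known to act on Axin1 and dendrite branching, was at 47.0 and 44.8 TPM. Pcdhgc5 (37819513 to 37841873), known mainly from the postnatal brain, was at 3.27 and 2.19 TPM. The ranges of the 3 genes did not touch. Pcdhgc4 was above 94.7% of protein-coding genes by mean TPM and Pcdhgc3 above 82.3%, whereas Pcdhgc5 was above 43.9%. Pcdhgc3 exceeded Pcdhgc5 by 4.10 ± 0.36 on the log2 scale, a fold of 17.2, and exceeded Pcdhgb6, the next gene in the order, by 1.48 ± 0.05, a fold of 2.79. At the level of whole genes Pcdhgc4 exceeded Pcdhgc3 by 1.63 ± 0.34, a fold of 3.10.

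The 5 C-types therefore did not form 1 level. Their sum was 185.3 TPM in replicate 1 and 223.4 TPM in replicate 2, 39.0% ± 2.97 of member TPM, of which Pcdhgc4 and Pcdhgc3 held nearly all. Pcdhac1 and Pcdhgc5 ranked 46th and 47th of 58. The 53 other members summed to 317.3 and 320.6 TPM, which differed less between the pools than the C-type sum did. That difference lay in Pcdhgc4, since all members without it summed to 379.2 and 380.3 TPM.

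The transcript tables divided Pcdhgc4 among 3 annotated forms. Pcdhgc4-201, the form with the complete variable exon and all constant exons, was at 25.1 TPM in replicate 1 and 35.0 TPM in replicate 2, or 20.9% ± 0.764 of the gene. Pcdhgc4-202, a single exon annotated as a retained intron that runs from the variable exon into the intron behind it, was at 33.4 and 39.9 TPM. Pcdhgc4-203 was the largest at 64.9 and 88.8 TPM, 53.4% ± 1.15 of the gene. This form starts with a first exon of only 153 bases, continues into the constant exons and has 393 coding bases, too few for the extracellular domains.

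Most of Pcdhgc4-203 is sequence that other genes carry. Of its 31-base words 93.3% also occurred in another gene, against 41.9% for Pcdhgc4-201 and 0% for Pcdhgc4-202. By expected counts, which are not divided by length, the forms were closer: 2286 and 3720 for Pcdhgc4-201, 1857 and 2583 for Pcdhgc4-202, and 2610 and 4159 for Pcdhgc4-203. How many reads of constant exons were given to the short form because of its own 5′ part, and how many for other reasons, was not tested. All 3 forms were higher in replicate 2.

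Pcdhgc3 was divided differently. Its full form Pcdhgc3-201 held 37.9 and 36.1 TPM, 80.6% ± 0.0354 of the gene. Pcdhgc3-202, annotated as a target of nonsense-mediated decay, held 8.46 and 8.55 TPM. Pcdhgc5 was split between its full form Pcdhgc5-201, at 52.0% ± 5.99, and the retained-intron form Pcdhgc5-202, at 36.6% ± 10.3. The rest was on 2 short forms that were at 0 TPM in replicate 2. Shares from the posterior mean TPM differed. By them Pcdhgc5-201 held 39.3% and 42.9%, and the short forms held 9.88% and 12.4% in replicate 2.

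**Figure D2:**
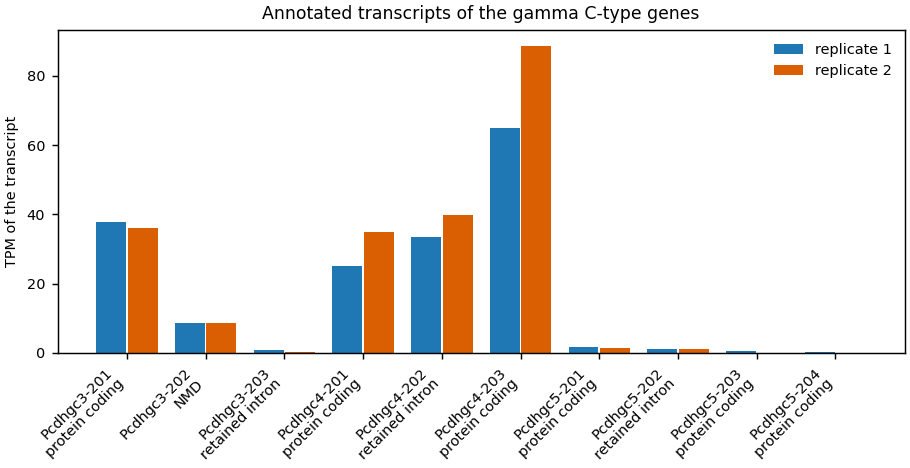
TPM (vertical axis, linear, from 0) of each annotated transcript of the 3 gamma C-type genes, with its annotated type under its name; blue bars are replicate 1 and orange bars replicate 2. The short coding form Pcdhgc4-203, at 64.9 and 88.8 TPM, is the tallest, and the full form Pcdhgc4-201, at 25.1 and 35.0 TPM, lies below Pcdhgc3-201, at 37.9 and 36.1 TPM.

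Counting only full coding forms changed the order at the top. A full coding form was taken as a transcript with at least 2000 coding bases, a cutoff set after the lengths were seen. All 58 genes have at least 1, and these forms together held 73.2% ± 1.92 of member TPM. By them Pcdhgc3 came first at 37.0 ± 1.26 TPM (SD, n = 2) and Pcdhgc4 second at 30.1 ± 7.03 TPM. The difference, Pcdhgc4 over Pcdhgc3, was -0.32 ± 0.39 on the log2 scale, with -0.60 in replicate 1 and -0.04 in replicate 2, so the spread between the pools was larger than the difference. Both stayed above Pcdhgb6 at 16.5 ± 0.0424 TPM. The gamma share was 52.3% by this measure, with 24.1% for alpha and 23.6% for beta. By mean TPM of full coding forms Pcdhgc3 was above 79.0% of protein-coding genes and Pcdhgc4 above 75.6%. The 5 C-types summed to 76.1 and 85.05 TPM of full coding forms, of 374.9 and 391.1 TPM over all members.

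**Figure D3:**
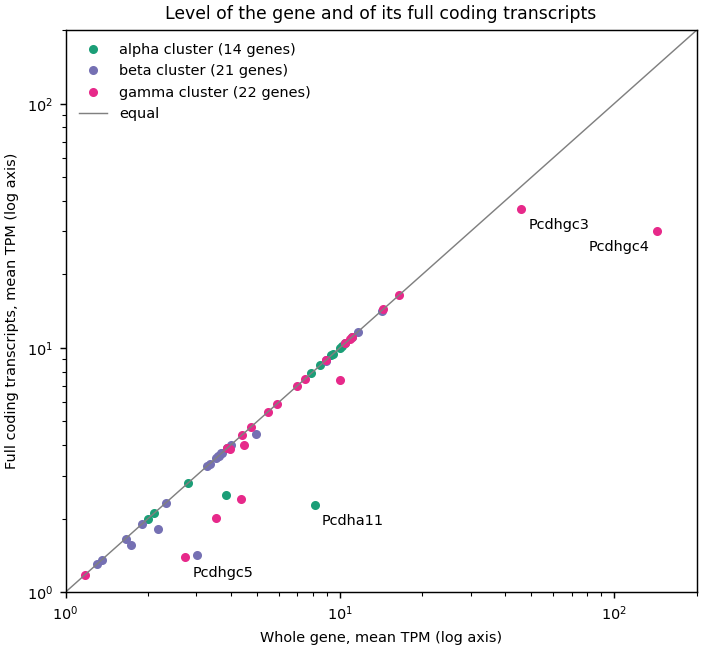
Mean TPM over both libraries of the whole gene (horizontal, log axis) against that of its full coding transcripts (vertical, log axis), one point for each of the 57 detected genes, coloured by cluster; the line marks equality. Most genes lie on the line, and Pcdhgc4 lies furthest below it in TPM, at 143.6 for the gene and 30.1 for the full coding form.

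In 8 genes the full coding forms held less than 80% of the gene, 2 of alpha, 1 of beta and 5 of gamma. Apart from Pcdhgc4 and Pcdhgc5 they were Pcdha4, Pcdha11, Pcdhb22, Pcdhgb4, Pcdhga9 and Pcdhga12, named because they met this count. In Pcdha11 a retained-intron form held the most, 3.65 TPM in replicate 1 and 3.24 TPM in replicate 2, and the full coding forms 2.28 ± 1.32 TPM. In Pcdhb22 a 2-exon form with 1611 coding bases held 52.8% ± 1.53 and the single-exon full form 47.2% ± 1.53. Over all members, 10 retained-intron transcripts of 9 genes summed to 46.9 and 50.3 TPM, most of it Pcdhgc4-202.

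The alpha genes have 2 coding ends, since the last constant exon can be used whole or spliced once more. Only 5 of the 14 genes have an annotated form with the extra splice. In Pcdha2, such a 5-exon form held 79.1% ± 6.50 and the 4-exon form 20.9% ± 6.50. In Pcdha1 the 5-exon form was given all of the gene in both libraries, at 2.10 and 2.12 TPM, and in Pcdha4, Pcdha6 and Pcdha11 it held between 9.37% and 26.9% in each library. Pcdha1, Pcdha6 and Pcdha11 are named to complete this count. By posterior mean TPM the 5-exon form held 74.2% and 74.5% of Pcdha2 and 93.3% and 95.8% of Pcdha1. For Pcdha6 that measure gave 23.9% and 22.2%, against 26.9% and 9.73% by TPM, so the spread between libraries depends on the estimate. Since the other alpha genes lack an annotated 5-exon form, their use of that end is not analysed here.

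Ranked by mean TPM, the 58 genes gave 57 pairs of neighbours, and in 43 of these the ranges over the libraries overlapped. The 14 pairs that lay apart included the first 3 steps, Pcdhgc4 over Pcdhgc3, Pcdhgc3 over Pcdhgb6 and Pcdhgb6 over Pcdhga11, and the last, Pcdhgb8 over Pcdhb1. Pcdhga11 and Pcdhb7 overlapped, and so did each of Pcdhb20, Pcdha2, Pcdhga7, Pcdhgb7 and Pcdha9 with the gene after it. Pcdhga2 lay apart from Pcdha7, and Pcdhga4, Pcdhga8, Pcdhga10 and Pcdhga5, in the middle of the order, each lay apart from the gene after it. The overall order was similar in both libraries, with a Spearman rho of 0.966 over the 58 genes. The median coefficient of variation of members above 1 TPM was 4.51%.

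Position along a cluster went with level only weakly. The Spearman rho of genomic order with mean TPM was -0.16 over the 14 alpha genes, 0.07 over the 22 beta genes and 0.22 over the 22 gamma genes, where a positive value means higher levels toward the 3′ end. Without the C-types it was -0.10 for alpha and 0.18 for gamma. These are descriptions over genes that share exons, neighbours and libraries. Pcdhgb6, the highest gamma gene outside the C-types, lies between Pcdhga9 and Pcdhga10, at mean levels of 3.54 and 5.92 TPM. Pcdhb7, the highest beta gene, lies between Pcdhb6 and Pcdhb8, at 2.18 and 4.97 TPM. The 2 highest genes of all, Pcdhgc3 and Pcdhgc4, are themselves neighbours.

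How well reads can be given to 1 isoform depends on the exons the isoforms share. The 3 alpha constant exons, of 59, 89 and 2712 bases, belong to all 14 alpha genes and add 2860 bases to a full transcript. The gamma constant exons, of 59, 89 and up to 1971 bases, belong to all 22 gamma genes and add 2119 bases. In the beta cluster 18 of 22 genes have a single exon in every transcript. The share of a gene's 31-base words that occur in another member had a median of 62.3% for alpha, 46.0% for gamma and 11.8% for beta. With 100-base words the medians were 55.1%, 43.6% and 0.207%, so the beta genes share short stretches and the others whole exons.

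The deposited credibility intervals of TPM, whose level the files do not state, did not follow this order. The width of the interval as a percentage of the posterior mean TPM had a median of 18.7% in replicate 1 and 16.2% in replicate 2 for alpha, 25.6% and 23.6% for beta, and 23.5% and 22.3% for gamma. The cluster with the most shared sequence thus had the narrowest intervals. Over the 57 detected genes in replicate 1, Spearman's rho of the width was -0.88 with the expected count and -0.13 with the share of words found in any other gene, as descriptions over genes of 1 library.

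**Figure D4:**
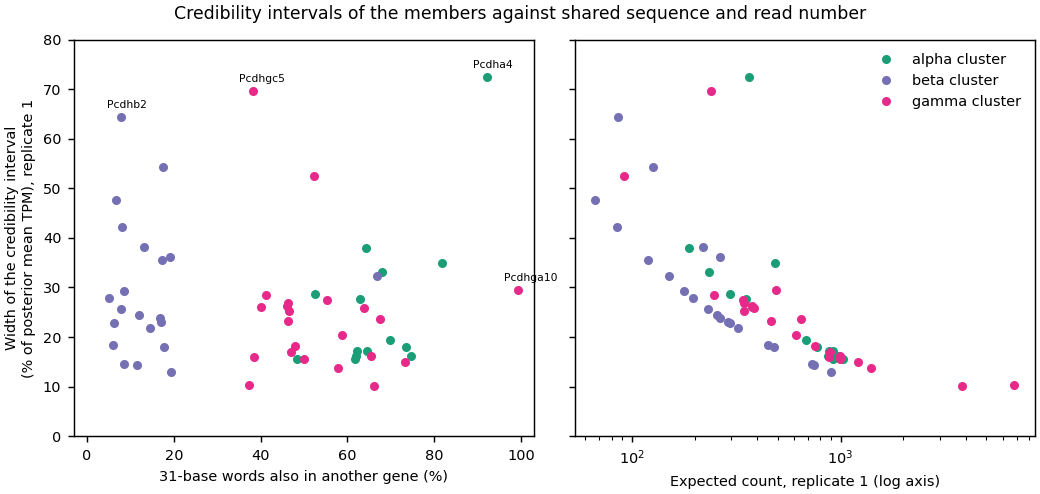
Width of the credibility interval of TPM as a percentage of the posterior mean in replicate 1 (vertical axis) against the share of 31-base words found in any other gene (left) and the expected count on a log axis (right), one point for each of the 57 detected genes, coloured by cluster. The width falls with the count, while Pcdha4, at a width of 72.5%, and Pcdhgc5, at 69.7%, lie above genes of similar count.

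The widest intervals of each cluster belonged to genes of different kinds. Pcdha4 had a width of 72.5% in replicate 1 and 71.2% in replicate 2, with bounds of 3.03 to 6.38 TPM and 2.41 to 5.11 TPM. It was at 4.22 and 3.46 TPM, on 364 and 336 counts. Pcdha10, set beside it for its similar 354 and 467 counts, had widths of 27.6% and 23.9%. Of the 31-base words of Pcdha4 92.2% occurred in another gene, and of those of Pcdha10 63.0%. This pair does not stand for all genes. Pcdhga10, with the highest share at 99.4%, had widths of 29.6% and 23.6% on 492 and 608 counts. Pcdha11, at 81.8%, had widths of 35.0% and 28.5% on 483 and 687 counts. Pcdhgc5 had widths of 69.7% and 61.2% on 240 and 241 counts. Pcdhb1 had the widest, 314% and 214%, since it had almost no counts. Pcdhgc4 and Pcdhgc3 were narrowest in relative terms among gamma genes in replicate 2, at 7.86% and 9.89%.

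Other annotated genes overlap the clusters and share their sequence. Gm42416, named here after its value was seen, is a protein-coding gene that starts in the variable exon of Pcdha4 and is spliced to gamma constant exons. It was at 5.27 TPM in replicate 1 and 6.93 TPM in replicate 2, above Pcdha4 by 0.66 ± 0.48 on the log2 scale, a fold of 1.58. It holds 41.1% of the words of Pcdha4, so the division of reads between these genes is uncertain. The similar genes Gm37013 and Gm37388, which join Pcdha6 and Pcdha7 to gamma exons, were listed at 0 in both libraries.

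Antisense genes lie over several variable exons, and the sources used here do not say whether reads were counted by strand. Gm26672, at 6.51 and 4.53 TPM, covers part of 4 gamma genes and holds 54.9% of the words of Pcdhga10, of which only 29 words occur in no other gene. It also holds 28.6% of the words of Pcdhga11, which led the gamma A type, and 12.9% of those of Pcdhgb7. BC037039, at 4.88 and 5.02 TPM, lies over Pcdhgc3 and holds 27.8% of its words. Gm10545, at 1.27 and 1.02 TPM, holds 32.5% of those of Pcdha11. Gm37446 holds 63.1% of the words of Pcdhb12 but was at 0 and 0.06 TPM. How far the levels of these genes carry this uncertainty was not tested. Their intervals in replicate 1 had widths of 29.6% for Pcdhga10, 35.0% for Pcdha11 and 32.3% for Pcdhb12. The widths were 14.9% for Pcdhga11, 16.1% for Pcdhgb7 and 10.1% for Pcdhgc3, beside 72.5% for Pcdha4.

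The remaining question is how far the pools differed. After TMM scaling and the addition of 0.5, ratios of expected counts could be formed for 57 members with a mean count of at least 10. A ratio of at least 1.5-fold, called past the threshold here, was reached by 3 of the 57, against 8.95% of the 17773 genes tested in either direction. Of these, 2 were higher in replicate 2 (background 5.09%) and 1 was lower (background 3.86%). This is near the background and is no result about the family. All 3 were beta genes of low count.

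Pcdhb12 was at 2.78 TPM in replicate 1 and 4.45 TPM in replicate 2, on 151 and 281 counts, a log2 ratio of 0.71 with a 95% counting interval of 0.42 to 1.01. Pcdhb15 was at 1.34 and 1.97 TPM, on 67 and 115 counts, a ratio of 0.59 with an interval of 0.15 to 1.05. Pcdhb5 was at 4.53 and 2.88 TPM, on 288 and 213 counts, a ratio of -0.62 with an interval of -0.88 to -0.36. These intervals are exact binomial (Clopper-Pearson) and cover counting error only.

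By size, most members differed little. The median log2 ratio was 0.05 over all members, 0.14 over alpha, 0.09 over beta and 0.01 over gamma, beside 0.01 over all genes. Of the 14 alpha genes 11 were higher in replicate 2, as were 15 of 21 beta genes and 12 of 22 gamma genes, against 52.0% of all genes. The counting interval excluded 1 for 17 of the 57 genes, 12 of them higher and 5 lower in replicate 2, against 37.5% of all genes. Among them was Pcdhgc4, at 6753 and 10462 counts. Its ratio was 0.45 with an interval of 0.40 to 0.49, the shortest of any member. That interval leaves out how reads are divided among features, and 2610 and 4159 of the counts were on Pcdhgc4-203. Pcdhgc3 had a ratio of -0.03, with an interval of -0.09 to 0.03, so the 2 abundant gamma C-types did not move together.

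Cell type markers also differed between the pools. Of the 8 astrocyte and radial glia markers 7 were higher in replicate 2, against 52.0% of all genes. Past 1.5-fold higher were 5 of them, against 5.09% of all genes, and their median log2 ratio was 0.73. None of the 8 progenitor and cell cycle markers was higher, and their median was -0.44. The 8 neuron markers had a median of 0.04. The part of these differences in the member ratios was not tested.

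**Figure D5:**
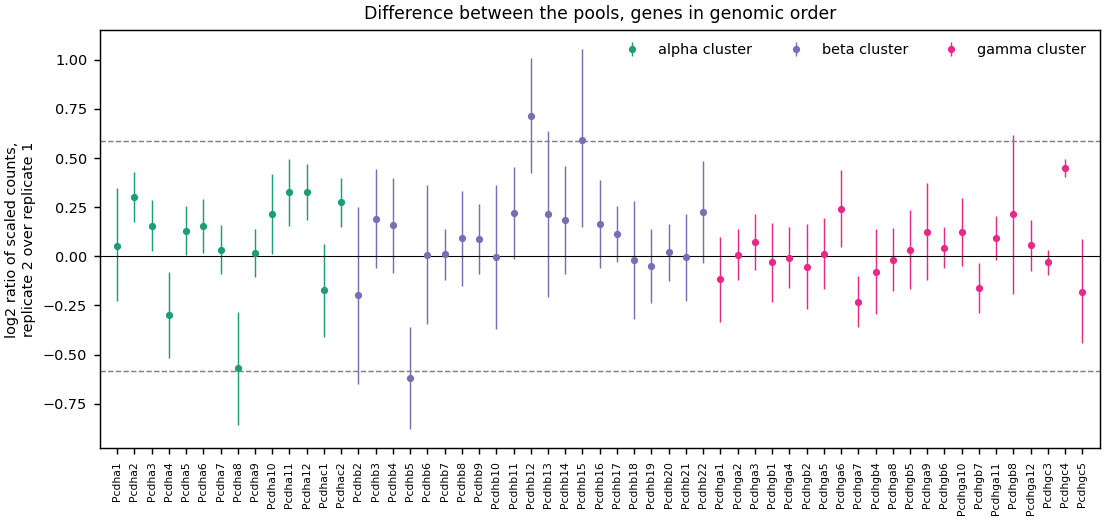
Log2 ratio of scaled expected counts, replicate 2 over replicate 1 (vertical axis), for the 57 members tested in genomic order; bars are 95% exact binomial counting intervals, dashed lines mark 1.5-fold and colours the cluster. Pcdhb12 at 0.71, Pcdhb15 at 0.59 and Pcdhb5 at -0.62 lie past the lines, and Pcdhgc4 at 0.45 has the shortest bar.

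Genes known to govern isoform choice were present together. All 20 genes of that list, which holds CTCF, cohesin and its loaders, DNA and histone methylation enzymes and related factors, were detected, against 62.1% of protein-coding genes, and 15 reached 10 TPM in both libraries, against 41.2%. Their median was 34.3 TPM in replicate 1 and 32.4 TPM in replicate 2. Dnmt3a, a de novo DNA methyltransferase, was highest at 100.8 and 89.8 TPM. Ctcf, whose protein binds the promoters and the enhancers, followed at 83.5 and 77.1 TPM, and Smc1a of cohesin was at 70.4 and 60.4 TPM. Dnmt3b, known to methylate these promoters in the early embryo and named for that role, was at 2.92 and 2.48 TPM. Of the 20 genes 2 were higher in replicate 2, against 52.0% of all genes. None passed 1.5-fold in either direction, against 8.95% of all genes.

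RNA of genes whose proteins cut clustered protocadherins or act inside the cell below them had a higher median than the members. Of 27 such genes 26 were detected, against 62.1% of protein-coding genes, and 24 reached 10 TPM, against 41.2%, with a median of 63.4 TPM in replicate 1 and 59.9 TPM in replicate 2. Ctnnb1, which encodes beta-catenin, was highest at 363.3 and 346.4 TPM. Rac1, a small GTPase of the actin skeleton, was at 240.7 and 261.7 TPM, and Brk1, a subunit of the WAVE complex that binds protocadherin tails, at 192.8 and 209.1 TPM. Ptk2b, the kinase Pyk2, which gamma and alpha tails are known to inhibit, was lowest and not detected, at 0.69 and 1.02 TPM, while its relative Ptk2 was at 40.2 and 36.1 TPM. The protease Adam10, which sheds the extracellular part, was at 51.4 and 44.7 TPM. Ptk2, Adam10 and Dnmt3b were named for these roles.

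The protocadherins outside the clusters had a higher median too. All 12 listed were detected, against 62.1% of protein-coding genes, with a median of 21.4 TPM in replicate 1 and 20.3 TPM in replicate 2. Pcdh9 was at 157.6 and 148.6 TPM, Pcdh8 at 46.1 and 53.8 TPM and Pcdh11x at 33.2 and 38.2 TPM. These 12 genes summed to 396.0 and 405.8 TPM, less than the 502.6 and 544.1 TPM of the 58 clustered genes. The ranges of Pcdhgc4 and Pcdh9 overlapped, and the median clustered gene lay below every one of the 12 except Pcdh12, at 2.96 and 2.61 TPM.

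Genes beside the clusters on chromosome 18 were not uniformly low. Of the 18 listed 17 were found, 15 were detected, against 62.1% of protein-coding genes, and 11 reached 10 TPM, against 41.2%. Ndufa2, a subunit of respiratory complex I, was at 233.8 and 233.3 TPM, Hdac3, a histone deacetylase, at 127.7 and 135.1 TPM and Hars, a histidyl-tRNA synthetase, at 106.9 and 110.5 TPM. Cd14, a receptor of myeloid cells, was at 0.37 and 0.44 TPM. Slc25a2, a mitochondrial carrier between the beta and gamma clusters, was at 0.89 and 0.73 TPM, and its neighbour Taf7, named for its place there, at 15.3 and 14.4 TPM. Levels beside the clusters thus ran from below 1 TPM to over 200 TPM.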

How the data were processed

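Total RNA of 2 midbrain libraries was quantified by the authors against mm10 and GENCODE M4 with spike-ins, per the readme of the deposit. Names of the aligner and the quantifier are not given in these sources, nor is the use of strand. The authors deposited expected counts, TPM, FPKM, posterior means, isoform percentages and credibility bounds for each gene and transcript, per the file headers. FPKM served as an alternative only. Reads that fit several features are divided among them in these estimated counts, so levels of genes that share exons depend on that division.

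Computed here: members were matched by identifier to GENCODE M21 on the same assembly, and all 88 of their transcripts had equal length in both releases. Sums, medians, means and SDs were taken from TPM. Words of 31 and 100 bases were compared on both strands over the transcripts in the tables. Pool ratios used rounded expected counts for TMM factors (edgeR 4.0.16), checked on simulated data, and DESeq2 1.42.0 size factors as an alternative. The text names all C-types, the 3 highest and the lowest of each other class and members with a count of 0. It also names the widest interval of each cluster and up to 3 members a direction past 1.5-fold. Of other lists it names the genes not detected and, outside the marker lists, the 3 highest. Some other marker genes are given as examples. Any other gene is named for a role, place or count stated beside it, with its values already seen. Members and lists were chosen with earlier results of these data known. No sequence letters are printed, and promoter and protein features were not analysed here. No test between groups was possible, since 1 group was sequenced.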

Additional observations from a re-analysis of the deposited data

How the results depend on the processing

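Cluster shares of member TPM depended on the measure. Expected counts gave 23.6% for alpha, 16.7% for beta and 59.8% for gamma, full coding transcripts 24.1%, 23.6% and 52.3%, and leaving out Pcdhgc4 26.2%, 24.5% and 49.3%, so gamma stayed the largest under each of these. Summed TPM of full coding transcripts was 92.4 for alpha, 90.2 for beta and 200.3 for gamma, and the posterior mean gave 91.1 for beta. By full coding transcripts Pcdhgc4 was at 30.1 TPM, Pcdhgc3 at 37.0 and Pcdhgc5 at 1.40, and the posterior mean put Pcdhb7 at 13.8 and Pcdhgb6 at 16.0. The Spearman rho of position in alpha was -0.18 with posterior mean TPM, 0.10 with expected counts, -0.14 with full coding transcripts, -0.10 without C-types, and -0.11 to -0.10 leaving out a replicate. In beta it was 0.0475, 0.36 and 0.0344 for the first 3 of these and 0.10 to 0.12 leaving out a replicate. In gamma it was 0.24 with expected counts, 0.15 with full coding transcripts, 0.18 without C-types and 0.21 leaving out either replicate. The sign in alpha turned with expected counts, which are not divided by length. The ratio of TPM called 1 member higher and 2 lower in replicate 2, with a median over all genes of -0.03, and adding 2 counts called 1 higher. With no count minimum 3 members were called higher. The number detected was 57 under 5 alternatives and 50 with a minimum of 2 TPM. The other alternatives moved values by less than the spread between the pools, or counts by no more than 1.5 times. For shares, totals and levels that spread is the SD (n = 2). Leaving out 1 of 2 libraries always moves such a mean by less, so it checks nothing there. Cutoffs for full coding forms, 100-base words and leaving out Pcdhgc4 were chosen after seeing the data. No paired analysis was possible because 1 group was sequenced. Depth limits genes of low count: the interval of Pcdhb15 spans 0.15 to 1.05.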
